A study of Mus musculus with 5 samples.

Results

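Log2 ratios of 9 mouse genes were examined: the coreceptor genes Cd4, Cd8a and Cd8b1, and the regulators Zbtb7b, Gata3, Tox, Runx1, Runx3 and Satb1. They were chosen by symbol for their known part in the choice between CD4 and CD8 T cells, and they are 9 of 16504 named genes on the arrays. The study compared thymus of ZAS3-null mice with thymus of wild-type littermates matched for sex and age, at 6 to 8 weeks. ZAS3 is a large DNA-binding protein with zinc fingers, encoded by Hivep3. RNA of a null and a wild-type thymus shared each of 5 arrays, which form 1 group, and the ratio on an array is its only value. The sample labels give whole thymus and the series design text gives thymocytes. How the null allele was made, the strain, and whether a sample was 1 animal or a pool are not given in the sources used here.

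A thymocyte that carries both CD4 and CD8 keeps only one of them when it matures. CD4, with MHC class II, and CD8, with MHC class I, help the T cell receptor to signal, and both bring the kinase LCK to it. ThPOK, the product of Zbtb7b, holds cells in the CD4 fate, and RUNX proteins silence Cd4 and Zbtb7b in cells of the CD8 fate.

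The direction of the ratios is not settled. The labels give Cy5 for ZAS3-null RNA and Cy3 for wild-type RNA, whereas the design text gives Cy3 for the mutant. The sample titles and the channel order make null over wild-type the likely direction, so a negative ratio likely means a lower level in ZAS3-null thymus, and the values below are called negative or positive only. No dye swap was made, so dye and genotype cannot be told apart. A ratio carries no level, so the labelled tissue could not be checked against marker levels, and spot brightness was not analysed here. For Hivep3 itself the deposited mean was 0.08 ± 0.07 (SD, n = 5; limma adjusted p = 0.370) and the corrected mean 0.17 ± 0.09 (adjusted p = 0.141). This value is an average over spots. The number of its probes and their place relative to the null allele are not given here, so it checks no label.

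The ratios drifted across the slide. Over the first 10 slide columns the array medians ran from -0.26 to -0.11, and over the last 10 from 0.21 to 0.31. Each gene is therefore given on 2 scales, as deposited and position-corrected, that is, after taking away the median of a window of 21 by 21 spots around each spot. Across features, the deposited ratios of the arrays correlated pairwise at 0.142 to 0.716 (10 pairs). The drift, which the arrays share, is still in those ratios, and its part in the correlation was not measured. Each of the 9 genes had 1 probe, so no second probe was there to compare. All gene names rest on a probe order recovered from the data.

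As deposited, Tox, Cd8a and Cd4 passed the test with negative ratios, at a limma adjusted p under 0.05 over 20861 features. None of the 9 passed with a positive ratio. Among all named genes, 12.9% passed with a negative and 12.0% with a positive ratio. After position correction 0 of the 9 passed, where 2.3% of named genes passed with a negative and 0.612% with a positive ratio. At an unadjusted p under 0.05, limma gave 6 of 9 on the corrected scale, beside 27.0% of named genes. With limma array weights, which rest on the same ratios, 5 of 9 passed on that scale, all negative, beside 10.9% of named genes that passed with a negative ratio in that fit.

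The mean ratio was negative for 7 of 9 genes on each scale. The share of all named genes with a negative mean was not counted, but the median over them was itself below 0 on each scale. The median of the 9 means was -0.26 as deposited, beside -0.03 over all named genes, whose quartiles were -0.20 and 0.16. After correction the median was -0.19, beside -0.01 over all named genes, whose quartiles were -0.15 and 0.12. Ratios negative on 5 of 5 arrays were seen for 4 genes as deposited, beside 20.5% of named genes, and for 5 genes after correction, beside 14.5%. The design text names a rule of 1.5-fold on at least 4 arrays, which 0 of the 9 met, beside 0.866% of named genes.

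**Figure D1:**
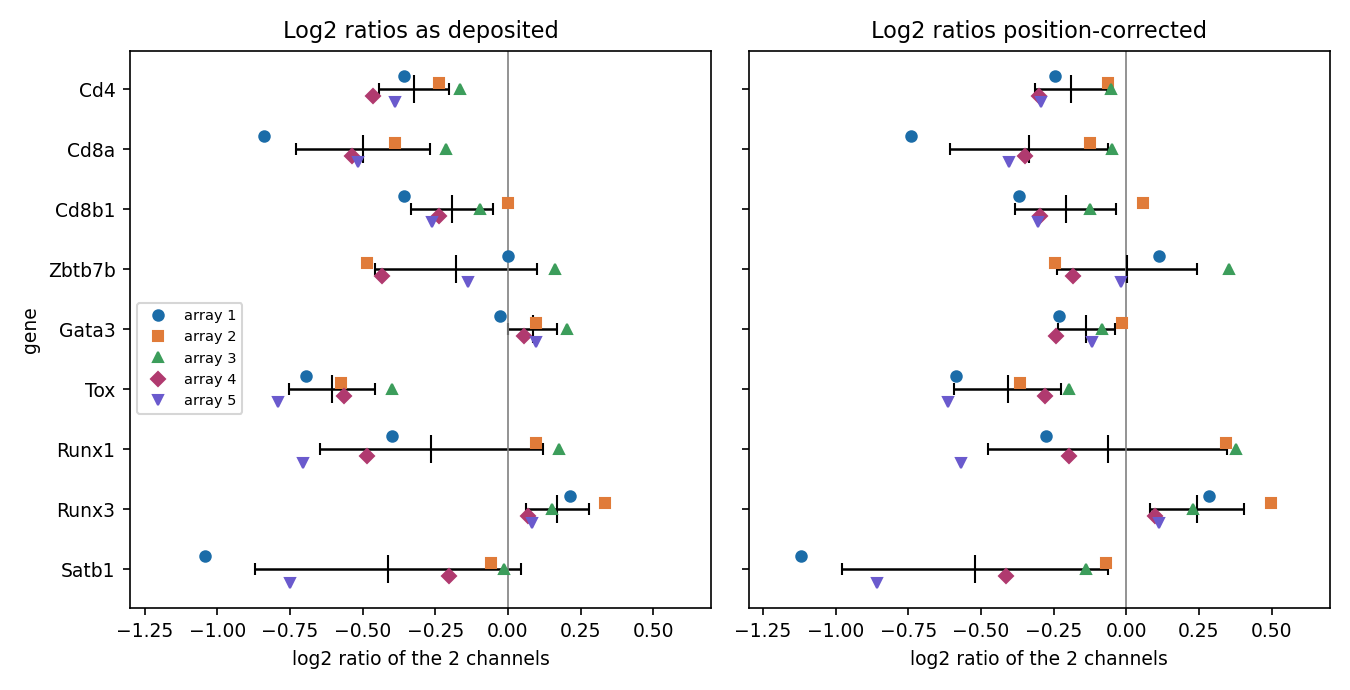
Log2 ratio of each of the 9 genes on each of the 5 arrays (points), with the mean (tick) and SD (bar), as deposited on the left and position-corrected on the right. Cd4, Cd8a, Tox and Satb1 are below 0 on every array on both scales, and Runx3 is above 0 on every array. Satb1 and Runx1 have the widest spread.

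Cd4 encodes the coreceptor of helper T cells. Its deposited log2 ratios on arrays 1 to 5 were -0.36, -0.24, -0.16, -0.46 and -0.39. All 5 were negative and spanned 0.30 on the log2 scale. The mean was -0.32 ± 0.12 (SD, n = 5), with a 95% interval of -0.49 to -0.16 and a limma adjusted p of 0.0197. That call was lost without array 1, 4 or 5, with a limma adjusted p of up to 0.0858. The corrected ratios were -0.25, -0.06, -0.05, -0.30 and -0.29, again negative on every array. Their mean was -0.19 ± 0.12 (SD, n = 5), with an interval of -0.36 to -0.03 and a limma adjusted p of 0.139. In whole tissue, fewer cells of a type and less RNA per cell cannot be told apart, for this gene and for those that follow.

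Cd8a encodes the alpha chain of CD8, which pairs with the beta chain or with itself. Its deposited log2 ratios on arrays 1 to 5 were -0.84, -0.39, -0.21, -0.54 and -0.52. Every array was negative, and array 1 was the lowest. The mean was -0.50 ± 0.23 (SD, n = 5), which is 1.41-fold in the negative direction. Its interval was -0.73 to -0.27, with a limma adjusted p of 0.0155. Without array 4 or array 5 the call was lost, at a limma adjusted p of up to 0.0661. After correction the values were -0.74, -0.13, -0.05, -0.35 and -0.40. Arrays 2 and 3 then lay close to 0. The corrected mean was -0.33 ± 0.27 (SD, n = 5), with an interval of -0.59 to -0.08 and a limma adjusted p of 0.114.

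Cd8b1 encodes the beta chain of CD8, which thymocytes that express CD8 carry beside the alpha chain. The deposited log2 ratios were -0.36, 0, -0.10, -0.24 and -0.26 on arrays 1 to 5. Array 2 held no difference and the other 4 were negative. The mean of -0.19 ± 0.14 (SD, n = 5) had an interval of -0.37 to -0.02 and did not pass (limma adjusted p = 0.0999). Without array 2 it passed as deposited, at a limma adjusted p of 0.0475. The corrected ratios were -0.37, 0.06, -0.13, -0.30 and -0.31, so array 2 was slightly positive. The corrected mean was -0.21 ± 0.17 (SD, n = 5), with an interval of -0.40 to -0.02 and a limma adjusted p of 0.157.

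The coreceptor genes were compared with each other on the same arrays. With 5 arrays, an exact sign-flip permutation test, two-sided, cannot go below p = 0.0625. The deposited Cd8a ratio was below the Cd8b1 ratio on 5 of 5 arrays, by a mean difference of -0.31 ± 0.14 (SD, n = 5; exact p = 0.0625, 0.125 adjusted over 4 pairs). The deposited ratio of Cd4 was above the Cd8a ratio on 5 of 5 arrays, by 0.18 ± 0.18 (SD, n = 5; exact p = 0.0625, 0.125 adjusted). Array 1 gave 0.48 of that difference and the other arrays 0.15, 0.05, 0.07 and 0.13. After correction these differences were -0.13 ± 0.17 and 0.14 ± 0.20 (SD, n = 5), in the same direction on 4 of 5 arrays each (exact p = 0.1875 and 0.125). Without array 1 the Cd4 minus Cd8a mean was 0.10 as deposited and 0.055 after correction, and the corrected Cd8a minus Cd8b1 mean was -0.065. As the smallest possible p is above 0.05, neither difference could pass, and the test decides nothing about them.

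The 250 bases before the start of Cd8a are shown as the upstream sequence of the coreceptor gene with the lowest mean ratio. They come from RefSeq (GRCm38.p6, chr6:71373177-71373426, plus strand) and hold 0 matches to the RUNX motif TGTGGT or its reverse strand ACCACA.

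Cd8a: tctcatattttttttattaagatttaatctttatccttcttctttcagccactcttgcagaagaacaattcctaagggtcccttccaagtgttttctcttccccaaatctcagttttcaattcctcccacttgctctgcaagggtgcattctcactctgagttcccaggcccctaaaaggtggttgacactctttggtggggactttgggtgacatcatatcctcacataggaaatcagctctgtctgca

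Zbtb7b encodes ThPOK. Its deposited log2 ratios on arrays 1 to 5 were 0, -0.49, 0.16, -0.43 and -0.14. The arrays lay on both sides of 0. The mean was -0.18 ± 0.28 (SD, n = 5), with an interval of -0.45 to 0.09 and a limma adjusted p of 0.274. The corrected values were 0.11, -0.25, 0.35, -0.18 and -0.02, and their mean of 0.0030 ± 0.24 (SD, n = 5) had an interval of -0.23 to 0.24 (limma adjusted p = 0.987). On that scale the interval holds changes of up to about 0.24 either way.

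Gata3 encodes a zinc finger factor needed for the CD4 fate, upstream of Zbtb7b. The deposited log2 ratios were -0.03, 0.10, 0.20, 0.06 and 0.10 on arrays 1 to 5. The corrected ratios were -0.23, -0.01, -0.09, -0.24 and -0.12. The gene was thus positive on 4 arrays as deposited and negative on all 5 after correction. The means were 0.08 ± 0.08 and -0.14 ± 0.10 (SD, n = 5), and neither passed (limma adjusted p = 0.333 and 0.212). The median of its neighbours on the slide was 0.22, so the sign of the Gata3 mean depends on the correction.

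Tox encodes a high mobility group box protein needed for CD4 T cells to develop. Its deposited log2 ratios on arrays 1 to 5 were -0.70, -0.58, -0.40, -0.57 and -0.79. All 5 were at or below -0.40. The mean was -0.61 ± 0.15 (SD, n = 5), which is 1.52-fold in the negative direction. Its interval was -0.78 to -0.43, with a limma adjusted p of 0.00525. Tox remained past the threshold as deposited without any one array, at a limma adjusted p of up to 0.0351. The corrected ratios were -0.59, -0.37, -0.20, -0.28 and -0.61, all negative. Their mean of -0.41 ± 0.18 (SD, n = 5) had an interval of -0.61 to -0.21 and missed the threshold (limma adjusted p = 0.0501). Under the other settings of the correction and fit, with the same probe order, the limma adjusted p ran from 0.0184 to 0.0536. With an array left out it ran from 0.0460 (without array 2) to 0.207 (without array 5).

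RUNX1 and RUNX3 bind the same DNA motif, RUNX1 mainly in earlier thymocytes and RUNX3 in cells of the CD8 fate. Runx1 had deposited log2 ratios of -0.40, 0.10, 0.18, -0.49 and -0.70 on arrays 1 to 5. Arrays 2 and 3 were positive and the other 3 negative. The mean was -0.26 ± 0.38 (SD, n = 5), with an interval of -0.61 to 0.08 (limma adjusted p = 0.220). After correction the values were -0.28, 0.34, 0.38, -0.20 and -0.57, with a mean of -0.06 ± 0.41 (SD, n = 5; limma adjusted p = 0.802). The arrays disagreed in sign on both scales, and without array 5 the corrected mean was 0.06.

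Runx3 was the only one of the 9 with a positive ratio on every array. Its deposited log2 ratios were 0.21, 0.33, 0.15, 0.07 and 0.08, with a mean of 0.17 ± 0.11 (SD, n = 5) and an interval of 0.01 to 0.33. It did not pass (limma adjusted p = 0.101). The corrected ratios were 0.28, 0.50, 0.23, 0.10 and 0.11, and their mean of 0.24 ± 0.16 (SD, n = 5) had an interval of 0.06 to 0.43 (limma adjusted p = 0.110). Of all named genes, 11.7% were positive on 5 of 5 arrays after correction.

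The 2 RUNX genes were set against each other, and Zbtb7b against Runx3, whose products act against each other in the lineage choice. As deposited, Runx1 lay below Runx3 on 4 of 5 arrays, by -0.43 ± 0.33 (SD, n = 5; exact p = 0.125, 0.125 adjusted over 4 pairs). Zbtb7b lay below Runx3 on 4 of 5 arrays, by -0.35 ± 0.32 (SD, n = 5; exact p = 0.125, 0.125 adjusted). After correction these were -0.31 ± 0.33 and -0.24 ± 0.32 (SD, n = 5; exact p = 0.125 each, 0.167 adjusted). Array 2 gave the most negative Zbtb7b minus Runx3 difference after correction, -0.74, and without it the mean was -0.12 (as deposited, -0.23). None of the 4 pairs passed on either scale.

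A stretch before the start of Runx3 and one after the start of Runx1 are shown because each holds 2 RUNX motifs, 2 bases apart. Capitals mark ACCACA, the reverse strand of TGTGGT. The Runx3 sequence begins at base -142, counting back from the gene's start (RefSeq, GRCm38.p6, chr4:135120503-135120532, plus strand). The Runx1 sequence begins at base 21 after the start (chr16:92826025-92826054, minus strand).

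Runx3: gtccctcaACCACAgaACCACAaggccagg

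Runx1: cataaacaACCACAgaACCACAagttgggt

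Of the 9 genes, 6 have a promoter window in the RefSeq table, 13 windows in all of 250 bases before to 50 after a start. Cd4, Cd8b1 and Tox are named only. The RUNX motif, on either strand, was found in 16.8% of 32851 promoter windows. It lay in a window each of Runx3, Runx1 and Zbtb7b. The GATA motif AGATAA (11.2% of windows) and GACTTTCC, the end of a kappaB site of the kind ZAS3 binds (1.18%), were in no window of these genes. A match is a description of these letters only.

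Satb1 encodes a chromatin organiser needed for thymocytes to mature and for the lineage genes to be set. The deposited log2 ratios on arrays 1 to 5 were -1.04, -0.06, -0.01, -0.20 and -0.75. Arrays 1 and 5 were far below the other 3. The mean was -0.41 ± 0.46 (SD, n = 5), with an interval of -0.82 to -0.01 (limma adjusted p = 0.120). The corrected ratios were -1.12, -0.07, -0.14, -0.42 and -0.86, with a mean of -0.52 ± 0.46 (SD, n = 5), an interval of -0.92 to -0.12 and a limma adjusted p of 0.112. All 5 were negative on both scales, with the widest spread of the 9 genes.

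The places of the genes on the slide bear on the deposited values. Cd4, Cd8a, Zbtb7b, Tox and Runx1 lay in slide columns 1 to 35, where 25.6% of named genes passed as deposited with a negative ratio, and all 3 deposited calls were among these 5 genes. The neighbours of Cd4, Cd8a and Tox had median mean ratios of -0.13, -0.17 and -0.20. Among spots within the 21 by 21 window, 5.57% had a mean ratio below that of Tox, 7.37% below that of Cd8a and 19.4% below that of Cd4. For Satb1, whose neighbours had a median of 0.11, it was 6.41%. For Runx3 it was 89.0%, and for Cd8b1 20.4%. Zbtb7b, at 51.9%, and Runx1, at 39.1%, sat in the middle of their neighbours.

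**Figure D2:**
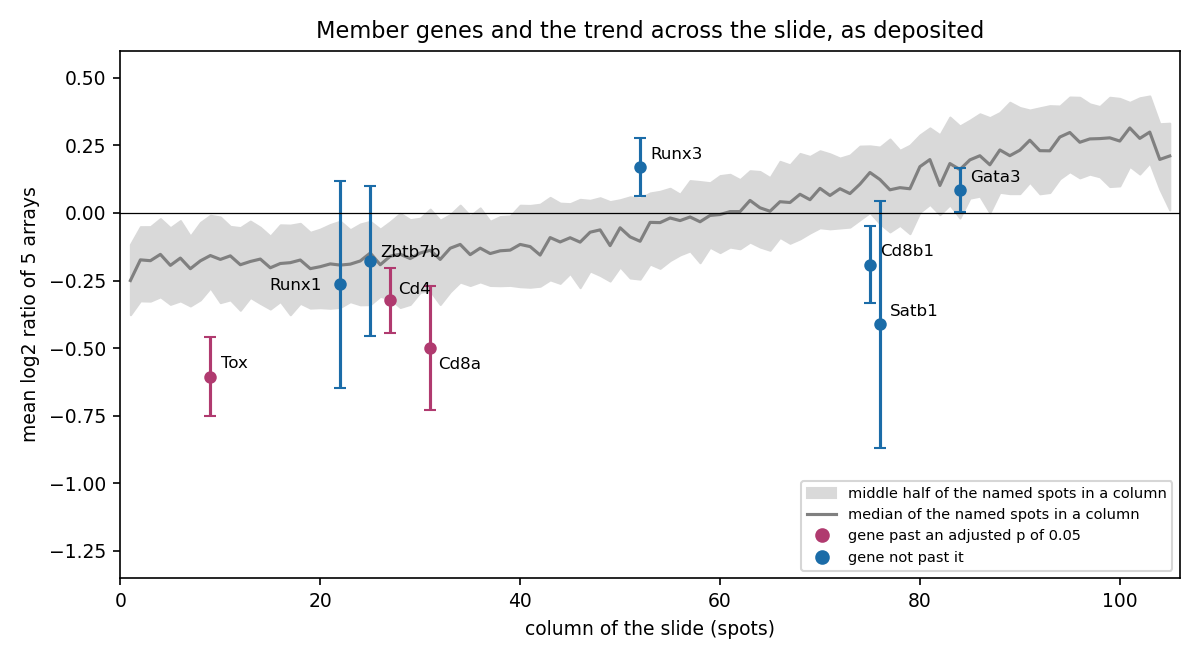
Mean deposited log2 ratio of the 9 genes (points, bars are SD over 5 arrays, red where limma's adjusted p is under 0.05) against slide column, with the median and quartiles of all named spots in each column (line and band). The line runs from below 0 at the left to above 0 at the right, and the means of Tox, Cd8a, Cd4, Cd8b1 and Satb1 lie below the band of their column, Cd4 only just, and that of Runx3 above it.

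**Figure D3:**
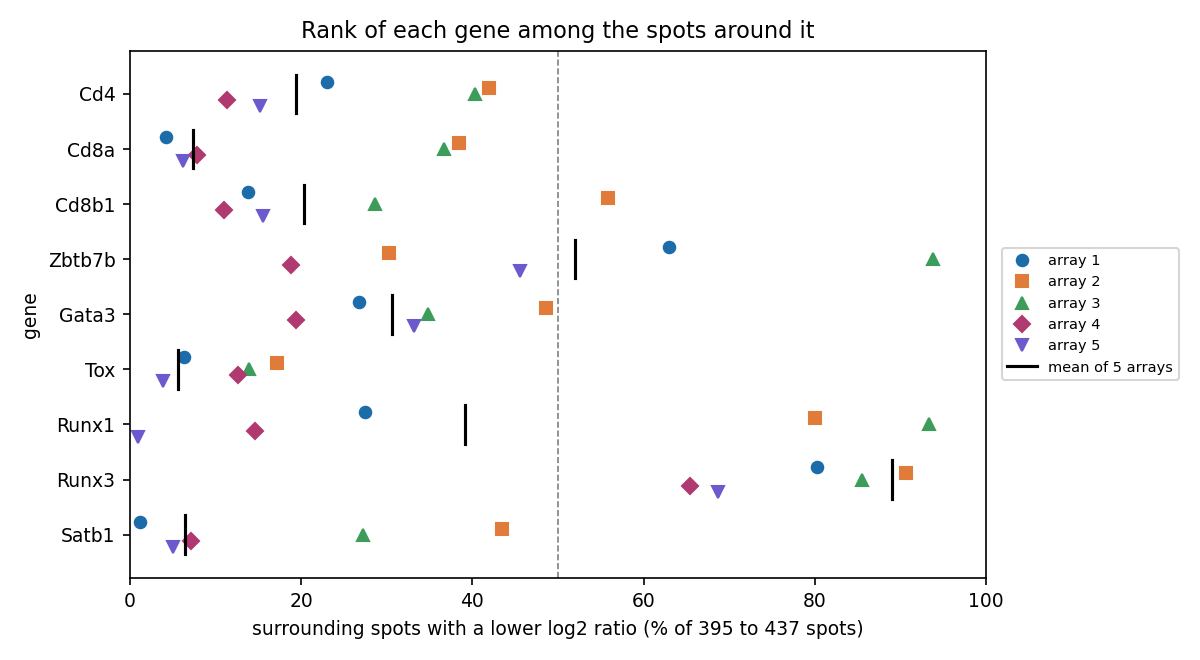
Percent of neighbouring spots with a lower ratio than each gene, on each array (points) and for the gene's mean ratio over the 5 arrays (black line); the dashed line is the middle of the neighbours. Satb1 ranges from 1.14% to 43.5% and Runx1 from 0.915% to 93.4% over the arrays, while Tox stays at or below 17.2%.

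The likeness of the coreceptor genes to other genes was measured as the root mean square difference over the 5 corrected ratios, across 16503 other genes. The nearest to Cd4 were Acyp1 (0.0215), Atp6ap1 (0.0258) and Hspa4 (0.0355), and 307 genes lay within 0.1. The nearest to Cd8a were Snx5 (0.0322), Rcc1 (0.0581) and Pabpn1 (0.0748), and 19 genes lay within 0.1. The nearest to Cd8b1 were Rpl7 (0.0362), Serp1 (0.0437) and Usp34 (0.0451), with 200 genes within 0.1. The coreceptors were not each other's nearest: Cd8b1 ranked 154 for Cd4 and 651 for Cd8a, and Cd4 ranked 84 for Cd8b1. Farther off, Cd8a ranked 4577 for Cd4 and 2257 for Cd8b1, and Cd4 ranked 1289 for Cd8a. Of the regulators, the nearest was Gata3 for Cd4 (rank 178) and for Cd8b1 (rank 337), and Tox for Cd8a (rank 405).

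Other genes of the pathway were taken from 8 lists of 88 genes, of which 77 were measured. As deposited, 19 of the 77 passed with a negative and 4 with a positive ratio, where 12.9% and 12.0% of named genes did, and the median of the 77 means was -0.12. After correction 7 passed negative and 0 positive, where 2.3% and 0.612% of named genes did, and the median was -0.10. The same shares are the background for each list that follows. Called on both scales were Tle3, Il7r, Jak1, Jak3 and B2m. When an array was left out, 18 of the 23 deposited calls and 6 of the 7 corrected calls were lost in at least one case, and the deposited call of Il7r was lost without each array. The corrected calls of Il7r and B2m were lost without array 1, 4 or 5 (limma adjusted p of up to 0.0787 and 0.190), and those of Egr1, Tle3, Jak1 and Tap2 without array 1, 3, 4 or 5 (up to 0.169). Jak3 passed without each array, at a limma adjusted p of up to 0.0316.

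Among transcription factors of the CD4 lineage, 10 of 13 were measured, and 3 (Lef1, Bcl11b and Tcf3) passed negative as deposited and 1 after correction. Lef1, a partner of TCF1, had a mean of -0.55 ± 0.12 (SD, n = 5; limma adjusted p = 0.00544), and -0.36 ± 0.16 (adjusted p = 0.0575) after correction. Egr1, an early response factor, passed only after correction, at -0.37 ± 0.07 (SD, n = 5; limma adjusted p = 0.0279, up to 0.164 without an array). Bcl11b, which keeps T cell identity, was -0.45 ± 0.18 as deposited (SD, n = 5; limma adjusted p = 0.0134) and -0.28 after correction (adjusted p = 0.116).

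Among cofactors and silencing proteins of RUNX, 13 of 16 were measured, with 4 negative calls (Tle1, Tle3, Tle4 and Chd4) and 1 positive call (Hdac1) as deposited and 1 negative after correction. Tle3, a corepressor that RUNX proteins recruit, was -0.71 ± 0.17 as deposited and -0.58 ± 0.22 after correction (SD, n = 5; limma adjusted p = 0.00382 and 0.0272). Cbfb, the partner that all RUNX proteins need, was -0.16 and -0.31 ± 0.15 (SD, n = 5; limma adjusted p = 0.198 and 0.0653). Chd4, a chromatin remodeller that acts on Cd4, was -0.59 ± 0.27 and -0.44 (SD, n = 5; limma adjusted p = 0.0139 and 0.0753).

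Of 13 genes of coreceptor and receptor signalling, 11 were measured, with 3 negative calls as deposited and 0 after correction. Zap70, the kinase that acts after LCK, was -0.44 ± 0.17 as deposited (SD, n = 5; limma adjusted p = 0.0128) and -0.35 after correction (adjusted p = 0.05001). Ptprc, the phosphatase CD45 that sets LCK activity, was -0.49 and -0.29 (n = 5; limma adjusted p = 0.0240 and 0.153). Csk, which inhibits LCK, was -0.39 and -0.34 (n = 5; limma adjusted p = 0.0493 and 0.132).

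The common gamma chain cytokine list had 14 of 15 measured, with 5 negative calls (Il7r, Il4ra, Jak1, Jak3 and Cish) and 1 positive call (Il15ra) as deposited and 3 negative after correction. Il7r, the interleukin 7 receptor, was -0.29 ± 0.17 as deposited and -0.50 ± 0.11 after correction (SD, n = 5; limma adjusted p = 0.0460 and 0.0110). Jak3, the kinase bound to the common gamma chain, was -0.44 ± 0.10 and -0.66 ± 0.13 (SD, n = 5; limma adjusted p = 0.00793 and 0.00353). Jak1, its partner, was -0.93 ± 0.29 and -0.74 ± 0.33 (SD, n = 5; limma adjusted p = 0.00536 and 0.0331).

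The genes used by the mature lineages are given as counts only. Of 11 genes of CD8 cells, 10 were measured, with 1 negative call (Gzmb) and 2 positive calls (Ccl5 and Nkg7) as deposited and 0 after correction. Ccl5, a chemokine of CD8 cells, was 0.53 ± 0.26 as deposited (SD, n = 5; limma adjusted p = 0.0170) and 0.30 after correction (adjusted p = 0.0892). Gzmb, a killing enzyme, was -0.66 ± 0.53 as deposited (SD, n = 5; limma adjusted p = 0.0492), and -0.46 after correction (adjusted p = 0.161). Xcl1, a chemokine, was -0.16 after correction (n = 5; limma adjusted p = 0.239). All 6 genes of CD4 cells were measured with 0 calls on either scale. Foxp3, the factor of regulatory T cells, was 0.26 ± 0.36 as deposited and 0.23 after correction (SD, n = 5; limma adjusted p = 0.202 and 0.326). The corrected means of Cd40lg, a helper ligand, and Ctla4, an inhibitory receptor, were 0.24 ± 0.19 and -0.28 ± 0.16 (SD, n = 5; limma adjusted p = 0.132 and 0.0872).

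The MHC class I list had 6 of 7 measured, with 3 negative calls (B2m, H2-D1 and Tap1) as deposited and 2 after correction. B2m, the light chain of MHC class I, was -0.60 ± 0.16 and -0.43 ± 0.17 (SD, n = 5; limma adjusted p = 0.00612 and 0.0414). Tap2, a peptide transporter subunit, was -0.37 ± 0.09 after correction (SD, n = 5; limma adjusted p = 0.0303), and Tap1, the other subunit, -0.26 ± 0.14 (adjusted p = 0.0842). All 7 MHC class II genes were measured with 0 calls on both scales, and Cd74, the invariant chain, was 0.50 ± 0.53 as deposited and 0.39 ± 0.51 after correction (SD, n = 5; limma adjusted p = 0.108 and 0.220). H2-Aa, a class II chain, and Ciita, the class II activator, were -0.25 ± 0.30 and -0.28 ± 0.44 after correction (SD, n = 5; limma adjusted p = 0.206 and 0.293).

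**Figure D4:**
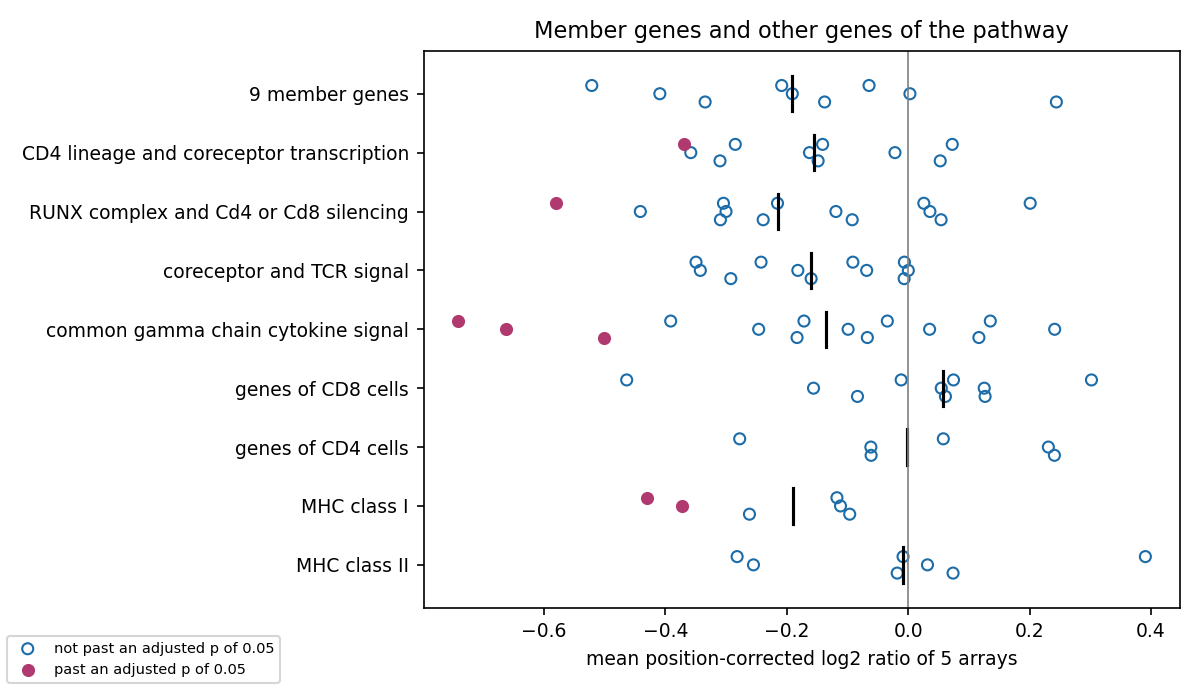
Mean position-corrected log2 ratio over 5 arrays of the 9 genes and of each measured gene of the 8 pathway lists (points, filled where limma's adjusted p is under 0.05), with each list's median (black line). The 7 filled points are all negative and lie in 4 lists.

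Markers of thymocyte stages and of other cells moved between the arrays, and their part in the values above was not tested. The ranges of list means here and in the next paragraph are as deposited, unless said otherwise. The 6 of 7 measured markers of CD4+CD8+ thymocytes had a mean of -0.37 to 0.04 over the arrays, with 2 negative calls (Rag1 and Dntt) and 1 positive call (Ptcra) as deposited and 1 negative call (Arpp21) after correction. Rag1, which encodes part of the enzyme that rearranges receptor genes, had deposited log2 ratios of -1.24, -0.23, -0.79, -0.82 and -0.99 (limma adjusted p = 0.0122, and 0.0710 after correction). The 5 of 7 T cell markers had means of -0.04 to 0.31, with 0 negative and 2 positive calls (Cd3e and Cd247) as deposited and 0 after correction. The 5 of 6 mature thymocyte markers ran from -0.25 to -0.00020, with 2 negative calls (Il7r and Cd69) as deposited and 1 (Il7r) after correction. The 4 of 5 B cell markers ran from 0.10 to 0.44. As deposited they had 1 negative call (Cd22) and 3 positive calls (Cd79a, Cd79b and Ms4a1), and 0 after correction. After correction the CD4+CD8+ markers ran from -0.43 to 0.07 and the T cell markers from -0.17 to 0.25. The mature thymocyte markers then ran from -0.34 to -0.12 and the B cell markers from 0.04 to 0.30.

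The 5 of 7 macrophage and dendritic cell markers ran from -0.17 to 0.16, with Lyz2 called negative and Xcr1 positive as deposited and 0 after correction. The 7 thymic epithelium markers ran from -0.05 to 0.21, with 1 positive call (Foxn1) on each scale. The 5 stroma and vessel markers ran from -0.08 to 0.16, with 1 positive call (Col3a1) as deposited and 0 after correction. The 2 of 5 erythroid markers ran from -0.53 to 1.63, highest on array 2, with 0 calls, and the 4 of 5 neutrophil markers from -0.82 to 0.09, lowest on array 4, with 1 negative call (S100a8) as deposited and 0 after correction. When an array was left out, 13 of the 16 deposited marker calls were lost in at least one case, Cd3e, Cd69 and Foxn1 being the other 3. All 3 corrected marker calls were lost: those of Foxn1 and Il7r without array 1, 4 or 5 (limma adjusted p of up to 0.075 and 0.0787), and that of Arpp21 without array 1, 3, 4 or 5 (up to 0.200).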

How the data were processed

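Total RNA of whole thymus was hybridised in 2 colours to Agilent arrays (per the labels). GenePix image reading and lowess normalization in GeneTraffic 2.6 are stated in the series design text. The deposited values are log2 ratios, 1 column per array, made by the authors; a 2-decimal fold explained 100% of values as log2 (tolerance 6e-05), against 8.0% as log10. Spot brightness and flags were not analysed here, so depth and signal over background are unknown.

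The value table's probe numbers did not pair values with genes. Of 8 ways to lay the numbers on the 215 by 105 grid, only the order with rows and columns exchanged and both turned end to end put all 256 spots below -1.5 on every array on unnamed numbers (at most 83 in the others). The median SD between spots of 48 genes with at least 10 spots was then 0.0691, against 0.197 to 0.241 in the others. Different probes of 1 gene still correlated weakly, at 0.107 over 1428 pairs (-0.07 to 0.04 in the others), which limits any gene with 1 probe. Probes of a gene were averaged, giving 20861 features and 16504 named genes. Of 18218 probes with 1 gene, 18175 matched the RefSeq gene table by gene number; 16 had several genes and 4341 none.

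The position correction subtracted the median of a 21 by 21 window without the 256 low spots. The mean of each feature was tested for a difference from 0 in limma 3.58.1 (R 4.3.3, intercept only). Calls were made at a Benjamini-Hochberg adjusted p under 0.05 over all features. The fit was run on simulated independent normal noise with changed features added. That simulation held no slide drift and no arrays of unequal quality, so it does not bear on either. Pairs of genes had exact sign-flip permutation tests in Python 3.11.15. Each array is 1 sample, and p-values measure the spread between these 5. Alternatives were centring, a common spread, single probes, the deposited numbers, array weights, robust eBayes, other forms of the correction and leaving out each array. Beside the 9 genes and Hivep3, the genes named were the 3 smallest p per pathway list after correction and the 3 nearest to each coreceptor. Other called genes of the lists, and Rag1, were named after their values were seen. The genes and lists were chosen with earlier results of these data known.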

Additional observations from a re-analysis of the deposited data

Results flagged for a closer look

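The Cd4 ratio minus the Cd8a ratio on array 1 stood apart from the other 4 arrays. It was 0.4839 as deposited and 0.4973 position-corrected, each beyond Dixon's 95% critical value for 5 samples. Of 26 groups of 5 values examined, 2 were marked in this way, and chance alone marks about 5% of groups. Cd8a had its lowest ratio on array 1.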

How the results depend on the processing

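As deposited, 3 of the 9 genes passed; 6 passed with array weights, 1 (Cd8a, positive) with the deposited probe numbers, and 1 to 4 when an array was left out. After correction 0 passed; Tox alone passed with a common spread, with column and row medians and with windows of 11 by 11 or 41 by 41 spots (1 each), 5 genes passed with array weights, and 0 to 1 when an array was left out. Among all named genes 4095 passed as deposited, 6231 with array weights and 734 to 4763 when an array was left out. After correction 481 passed, 1041 with a common spread, 2899 with array weights and 23 to 1152 when an array was left out. The array weights ran from 0.347 (array 2) to 2.485 (array 5) as deposited. With the deposited probe numbers, which name other spots, signs turned: as deposited, Cd8a was 0.28, Gata3 -0.19 and Satb1 0.030; after correction, Cd8a was 0.075, Cd8b1 0.017, Zbtb7b -0.073, Runx1 0.071, Runx3 -0.0033 and Satb1 0.15. The corrected Zbtb7b mean, close to 0, was -0.026 with column and row medians, -0.010 with a 41 by 41 window and -0.084 to 0.065 when an array was left out. The corrected Runx1 mean was -0.17 to 0.061 when an array was left out. The cause of these shifts was not tested. Among the gene means, 80 of 90 values with an array left out kept direction and side of the threshold. Of the rest, 5 lost a call, 2 gained one and 3 reversed. Only Cd4, Cd8a and Tox, as deposited, had a call to lose, and the 5 losses were of Cd4 and Cd8a. The 80 therefore do not measure how firm the calls are. Under the other settings 103 stayed the same, 12 gained a call and 2 reversed, and with the deposited probe numbers 7 stayed the same. Each array holds a null and a wild-type sample, so testing its ratio against 0 is already a paired comparison. There is 1 group, and no further pairing was possible.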
